A study of Homo sapiens with 9 samples.

Results

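Copper enters human cells and is handed on and pumped out by a small set of proteins, and platinum drugs such as oxaliplatin have been linked to several of them. The data described here are the RNA levels of 8 of these genes: SLC31A1 and SLC31A2, the copper chaperone genes ATOX1 and CCS, the copper-exporting ATPase genes ATP7A and ATP7B, and the organic cation carrier genes SLC22A3 and SLC47A1. They were chosen by name as uptake, chaperone and export genes for copper and platinum compounds, by a rule that uses no measured value, although earlier results of these data were known when they were chosen, and all 8 were found among the 20030 genes of the deposited table.

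The cells were MHCC97L, an established human hepatocellular carcinoma line with high metastatic potential, and a pair of resistant lines raised from it by drug exposure in culture. The study describes rising concentrations for saracatinib and continual treatment for oxaliplatin. MHCC97L-Src was stably resistant to 4 µmol/L saracatinib, an inhibitor of the Src kinase, and MHCC97L-Oxa to 2 µmol/L oxaliplatin, whereas MHCC97L was untreated. RNA was sequenced from 3 libraries of each line, 9 in all. Each resistant line stands for 1 selection in 1 parental line, and whether the drug was still present at harvest is not given in the sources used here. The study describes the profiles of MHCC97L and MHCC97L-Src as coming from separate experiments. The sources used here do not say so for MHCC97L-Oxa, where p-values measure only the spread between libraries, which may be technical.

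The copper pathway has an order. SLC31A1 (CTR1) is the main copper importer of the plasma membrane and SLC31A2 (CTR2) is a related protein found mostly on internal membranes. ATOX1 carries copper to ATP7A and ATP7B, which move it into the secretory pathway and out of the cell, and CCS loads it into the superoxide dismutase SOD1. SLC22A3 (OCT3) brings organic cations into cells and SLC47A1 (MATE1) sends them out in exchange for protons. ATP7B is known as the liver's copper exporter and ATP7A as that of most other tissues.

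In GENCODE v29, on GRCh38, the related genes SLC31A2 (chr9:113150942-113164137) and SLC31A1 (chr9:113221562-113264492) lie near each other on the + strand. The ATPase genes are apart, ATP7A at chrX:77910656-78050395 on the + strand and ATP7B at chr13:51930436-52012125 on the - strand. ATOX1 is at chr5:151742316-151772532 (- strand), CCS at chr11:66592821-66606019 (+), SLC22A3 at chr6:160348268-160452581 (+) and SLC47A1 at chr17:19495385-19579034 (+).

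Total counts per library lay between 16970486 and 18209213, and counts of 3 correspond to 0.165 to 0.177 CPM (counts scaled to the size of the library). Hepatocyte markers were near absent: of 11 such genes, none had over 3 counts in every MHCC97L library and 2 did in each resistant line, and ALB, AFP, APOB and TTR were at 0 counts in all 9 libraries. The summed level of the 11 was at most 0.398 FPKM (the authors' level per length of transcript and depth of library). Of 5 epithelial markers, the keratins KRT8 and KRT18 reached 631 to 1547 and 563 to 1298 FPKM, whereas KRT19, CDH1 and EPCAM were at most 0.492, 0.142 and 0.037 FPKM. Of 5 leukocyte markers, PTPRC and CD3E were at 0 throughout, whereas CD14 was at 0.524 to 0.689 FPKM in MHCC97L and 2.68 to 3.64 in the resistant lines, and CD68 at 13.6 to 21.2 FPKM in MHCC97L, 19.8 to 23.9 in MHCC97L-Src and 40.4 to 40.6 in MHCC97L-Oxa. The summed level of 5 fibroblast markers was 10.6 to 28.8 FPKM and that of 4 endothelial markers 0.137 to 2.06 FPKM. Libraries also differed in how their counts followed the GC content of the genes. Spearman's rho between GC content and a gene's deviation from its 9-library mean was -0.79 in MHCC97L replicate 1 and -0.26 in replicate 3, but between 0.17 and 0.70 in the other 7 libraries. The members run from 38.9% GC (ATP7A) to 63.1% (CCS), so each comparison with MHCC97L is also given with a correction for GC content and transcript length.

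Promoter sequences from RefSeq (GRCh38.p14) were at hand for 5 of the 8 members: SLC31A1, ATP7A, ATP7B, ATOX1 and CCS. Those of the copper importer and of both chaperones are shown, because the chaperone genes varied together over the libraries and the importer varied the other way. Much of that variation ran along with GC content and length. Pearson's r with the deviation fitted from them was 0.91 for ATOX1, 0.96 for CCS and 0.76 for SLC31A1. Shared regulation of these genes was not tested. Each is the stretch before the transcript start, 5′ to 3′ on the gene's strand. Capitals mark the GC box GGGCGG, the core bound by the factor Sp1, and the metal response element core TGCACNC or TGCGCNC, the core bound by the metal sensor MTF1, on either strand.
SLC31A1: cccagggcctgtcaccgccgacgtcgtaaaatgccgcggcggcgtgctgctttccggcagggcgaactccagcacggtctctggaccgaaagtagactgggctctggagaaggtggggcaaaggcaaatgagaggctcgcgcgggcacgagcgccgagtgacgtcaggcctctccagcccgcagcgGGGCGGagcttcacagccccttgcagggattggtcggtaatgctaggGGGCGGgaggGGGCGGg
ATOX1: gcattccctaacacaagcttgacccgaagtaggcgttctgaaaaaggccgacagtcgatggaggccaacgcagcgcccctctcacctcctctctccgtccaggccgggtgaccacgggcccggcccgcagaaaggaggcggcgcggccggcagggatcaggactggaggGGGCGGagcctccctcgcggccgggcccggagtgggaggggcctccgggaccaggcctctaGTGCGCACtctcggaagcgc
CCS: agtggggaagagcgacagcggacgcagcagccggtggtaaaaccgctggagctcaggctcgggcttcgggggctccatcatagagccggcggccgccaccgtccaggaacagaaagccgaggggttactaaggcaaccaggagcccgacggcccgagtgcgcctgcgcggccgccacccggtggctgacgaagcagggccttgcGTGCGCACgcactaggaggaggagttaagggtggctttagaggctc
The SLC31A1 stretch is chr9:113221294-113221543 on the + strand, that of ATOX1 chr5:151758632-151758881 on the - strand and that of CCS chr11:66592935-66593184 on the + strand. The ATOX1 and CCS stretches lie within the GENCODE gene spans given above. GENCODE lists 7 transcripts of ATOX1 and 9 of CCS, so the start used here is not the outermost one. SLC31A1 held 3 GC boxes, starting 64, 17 and 7 bases before the transcript start. ATOX1 and CCS each held 1 metal response core that reads on both strands, TGCGCAC, starting 19 and 45 bases before the start. The GC box does not divide importer from chaperones: ATOX1 also held 1 GC box before its start and 1 after it, and CCS held none. The metal response core was present for both chaperones and absent for SLC31A1. In the window of 250 bases before and 50 after the start, ATP7B held 3 GC boxes and 1 metal response core and ATP7A held neither. In that window a GC box stood in 45.0% of 35116 promoters and a metal response core in 29.6%, so neither is rare, and a match is only a description of the letters.

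ATOX1 was the most abundant member per length and ATP7A the least. The mean FPKM over 9 libraries was 130.5 for ATOX1, 19.3 for CCS, 5.89 for SLC47A1, 4.94 for SLC31A1, 0.791 for SLC31A2, 0.657 for SLC22A3, 0.474 for ATP7B and 0.269 for ATP7A. Some neighbours in this order overlapped between libraries of a line: SLC47A1 and SLC31A1 in all 3 lines, SLC31A2 and SLC22A3 in MHCC97L and MHCC97L-Src, SLC22A3 and ATP7B in both resistant lines, and ATP7B and ATP7A in MHCC97L alone. The chaperones therefore stood clear of every transporter gene in every library. The order at the low end changed with the library: in MHCC97L replicate 1, ATP7A at 0.992 FPKM lay above SLC31A2 at 0.556, whereas in every resistant library ATP7A was the lowest of the 8.

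**Figure D1:**
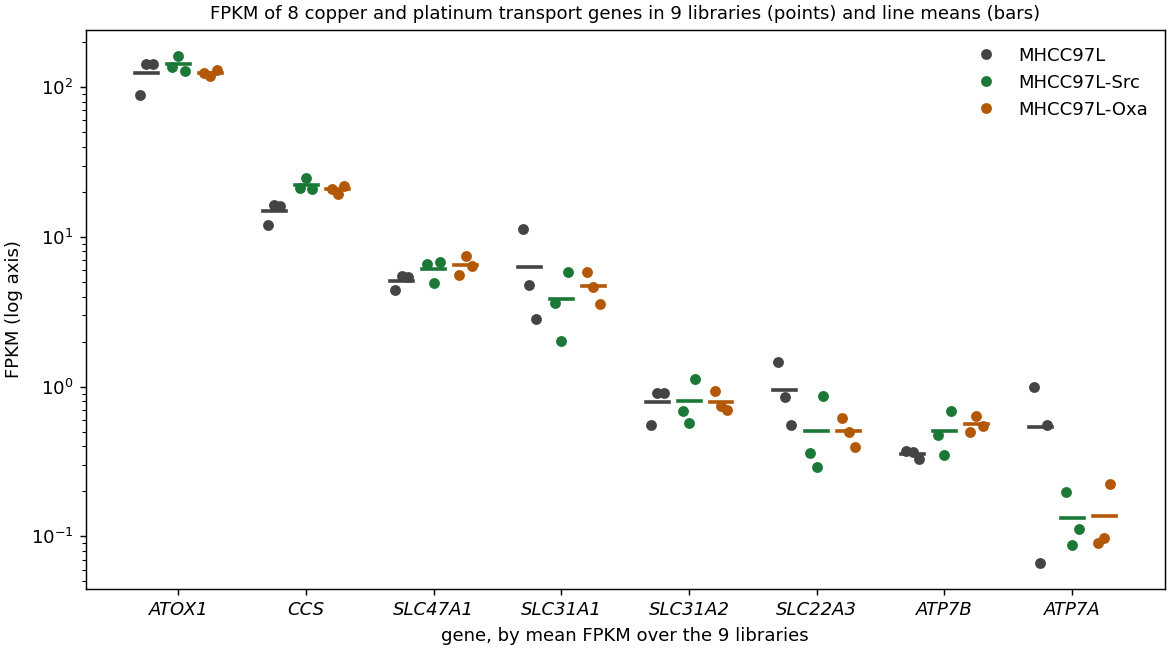
FPKM (log axis) of the 8 genes in each library, with genes ordered from left to right by mean FPKM, points for libraries coloured by line and bars for the mean of each line's 3 libraries. ATOX1 lies near 130.5 FPKM in all lines, whereas the 3 MHCC97L libraries of ATP7A are spread from 0.066 to 0.992 FPKM.

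In the comparison of each resistant line with MHCC97L, no member passed the test. All 8 were kept by the filter on low counts, and 0 of 8 had an adjusted p under 0.05 in either comparison by edgeR's quasi-likelihood test with Benjamini-Hochberg adjustment over all tested genes. Among all tested genes 2.13% were called for MHCC97L-Src and 0.953% for MHCC97L-Oxa. At an unadjusted p under 0.05 there was 1 member for MHCC97L-Src (ATP7A) and 2 for MHCC97L-Oxa (ATP7A and SLC22A3), where 29.5% and 22.4% of all tested genes passed. Requiring also a log2 fold change over 1 in size left ATP7A alone in each, where 24.6% and 16.2% of all tested genes passed. DESeq2 also called 0 of 8 in both, against 14.6% and 6.12% of all genes it tested. The lowest adjusted p among the members was 0.137 for MHCC97L-Src and 0.206 for MHCC97L-Oxa, both for ATP7A. Both comparisons use the same 3 MHCC97L libraries, so their values stand side by side and are not independent. In bulk RNA such as this, fewer cells that express a gene and less RNA per cell cannot be told apart.

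**Figure D2:**
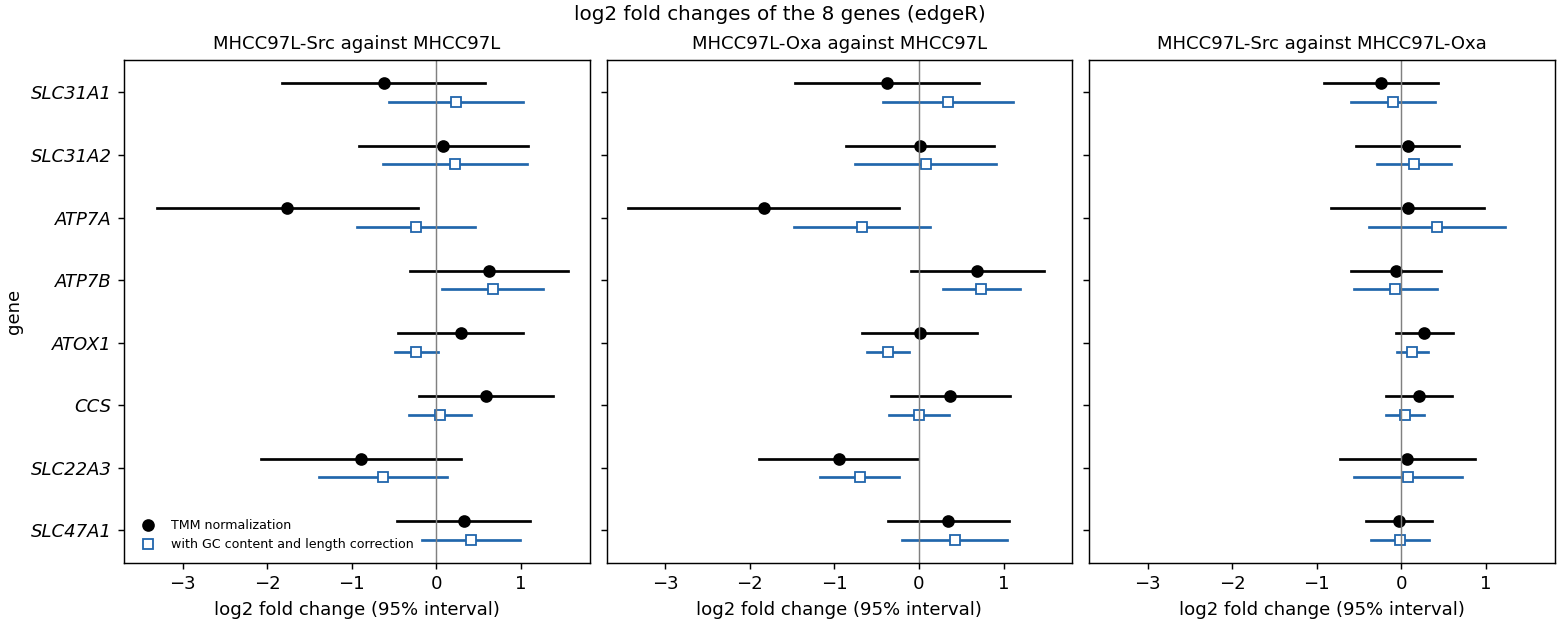
Log2 fold change (x axis) of each gene in the 3 comparisons, with 95% intervals, as black circles with TMM normalization and as open blue squares with the added correction for GC content and length. ATP7A moves from -1.76 to -0.25 in MHCC97L-Src with the correction, while ATP7B stays near 0.6 to 0.7 in both resistant lines.

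SLC31A1, the copper importer, varied more within the untreated line than between lines. It measured 11.3, 4.76 and 2.84 FPKM in the MHCC97L libraries, 3.59, 2.03 and 5.85 in those of MHCC97L-Src, and 5.86, 4.61 and 3.57 in those of MHCC97L-Oxa. The MHCC97L libraries enclose all 3 values of MHCC97L-Oxa and 2 of the 3 of MHCC97L-Src, and replicate 1 stands above the other 8 libraries. In edgeR's fit it had a log2 fold change of -0.62 ± 0.53 (SE, 95% interval -1.82 to 0.58, adjusted p = 0.435, edgeR) in MHCC97L-Src and -0.38 ± 0.47 (-1.47 to 0.71, adjusted p = 0.621) in MHCC97L-Oxa. Its sign rests on that library: without MHCC97L replicate 1 the values were 0.06 and 0.35. With the GC and length correction they were 0.23 and 0.34.

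SLC31A2, its relative on internal membranes, overlapped between all lines. It measured 0.556, 0.902 and 0.909 FPKM in the MHCC97L libraries, 0.691, 0.575 and 1.13 in those of MHCC97L-Src, and 0.928, 0.739 and 0.696 in those of MHCC97L-Oxa, from 71 to 154 counts per library. No line stands apart. Its log2 fold change was 0.08 ± 0.44 (SE, 95% interval -0.92 to 1.08) for MHCC97L-Src and 0.01 ± 0.38 (-0.86 to 0.88) for MHCC97L-Oxa, with edgeR adjusted p of 0.914 and 0.990. With the GC and length correction the values were 0.22 and 0.08 (adjusted p = 0.705 and 0.902, edgeR).

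SLC22A3, the organic cation importer, had a mean FPKM in each resistant line of about 0.51 and 0.50 against 0.957 in MHCC97L. It measured 1.46, 0.856 and 0.551 FPKM in the MHCC97L libraries, 0.363, 0.290 and 0.872 in those of MHCC97L-Src, and 0.619, 0.500 and 0.396 in those of MHCC97L-Oxa. MHCC97L-Src replicate 3 lies above 2 of the 3 MHCC97L libraries, and MHCC97L-Oxa replicate 1 lies above MHCC97L replicate 3, so the lines overlap. The log2 fold change was -0.89 ± 0.52 (SE, adjusted p = 0.270, edgeR) for MHCC97L-Src and -0.95 ± 0.41 (adjusted p = 0.220) for MHCC97L-Oxa. With the GC and length correction the values were -0.63 and -0.70 (adjusted p = 0.236 and 0.0619), and without MHCC97L replicate 1 they were -0.49 and -0.51.

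ATOX1, which hands copper to the ATPases, was high in every library. It measured 88.1, 143.1 and 142.2 FPKM in the MHCC97L libraries, 136.1, 162.5 and 128.5 in those of MHCC97L-Src, and 124.4, 118.4 and 131.0 in those of MHCC97L-Oxa. MHCC97L replicate 1 is the lowest of the 9, and the other 2 MHCC97L libraries lie above every MHCC97L-Oxa library. In edgeR's fit it had a log2 fold change of 0.28 ± 0.32 (SE, adjusted p = 0.564, edgeR) for MHCC97L-Src and 0.01 ± 0.30 (adjusted p = 0.991) for MHCC97L-Oxa. The correction for GC content and length turned both signs, to -0.24 (adjusted p = 0.192) and -0.37 (adjusted p = 0.0635).

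CCS, the chaperone of SOD1, was the member whose FPKM stood apart in both resistant lines. It measured 12.1, 16.4 and 16.0 FPKM in the MHCC97L libraries, 21.3, 24.7 and 20.9 in those of MHCC97L-Src, and 21.0, 19.4 and 21.9 in those of MHCC97L-Oxa. All 6 resistant libraries lie above all 3 MHCC97L libraries. Its log2 fold change was 0.58 ± 0.35 (SE, 95% interval -0.21 to 1.38, adjusted p = 0.277, edgeR) for MHCC97L-Src and 0.37 ± 0.31 (-0.33 to 1.08, adjusted p = 0.448) for MHCC97L-Oxa. CCS has the highest GC content of the members, and with the correction the values were 0.04 (95% interval -0.32 to 0.41) and -0.00 (-0.36 to 0.35).

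Overlap between lines depends on the scale. In FPKM, CCS did not overlap between MHCC97L-Src and MHCC97L, and CCS, ATP7B and SLC47A1 did not overlap between MHCC97L-Oxa and MHCC97L, each being higher in the resistant line, against 29.9% and 29.3% of all tested genes without overlap in either direction. On log2 CPM with TMM scaling the members without overlap were ATP7B and CCS for MHCC97L-Src and ATP7B and SLC47A1 for MHCC97L-Oxa, against 29.8% and 28.1%. The FPKM basis was added after the TMM values had been seen. A share of 1 to 3 of 8 members is near these backgrounds.

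ATP7A, the copper exporter of most tissues, had the largest fold change of the members against MHCC97L with TMM normalization and the widest spread over the 9 libraries, but not the largest fold change once GC content and length were corrected for. Its counts were 173, 23 and 93 in the MHCC97L libraries, 33, 17 and 27 in those of MHCC97L-Src, and 21, 18 and 39 in those of MHCC97L-Oxa. In FPKM the values were 0.992, 0.066 and 0.556, then 0.197, 0.087 and 0.112, then 0.090, 0.098 and 0.224. MHCC97L replicates 1 and 3 lie above all 6 resistant libraries, whereas replicate 2 lies among them. Counting error does not span this gap, as the exact Poisson 95% interval was 148.2 to 200.8 counts for replicate 1 and 14.6 to 34.5 for replicate 2. The interval covers counting error only.

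The log2 fold change of ATP7A was -1.76 ± 0.68 (SE, 95% interval -3.30 to -0.22, adjusted p = 0.137, edgeR) for MHCC97L-Src and -1.84 ± 0.70 (-3.44 to -0.23, adjusted p = 0.206) for MHCC97L-Oxa. Single libraries decided the call. Without MHCC97L replicate 2 the values were -2.16 (adjusted p = 0.0072, edgeR) and -2.21 (adjusted p = 0.0173), and ATP7A was then called in both. Those fits also called 3419 of 12288 and 2705 of 12256 tested genes, so the ATP7A call is not particular to it. Without MHCC97L replicate 1 they were -1.05 (adjusted p = 0.321) and -1.08 (adjusted p = 0.310). With the GC and length correction they were -0.25 (95% interval -0.94 to 0.45) and -0.67 (-1.47 to 0.13). ATP7A has the lowest GC content of the members, and the libraries where it was high, MHCC97L replicates 1 and 3, are those with a negative rho between GC content and deviation.

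ATP7B, the liver's copper exporter, pointed the other way. It measured 0.372, 0.369 and 0.329 FPKM in the MHCC97L libraries, 0.477, 0.351 and 0.688 in those of MHCC97L-Src, and 0.496, 0.632 and 0.548 in those of MHCC97L-Oxa, from 92 to 206 counts. All 3 MHCC97L-Oxa libraries lie above the MHCC97L libraries, whereas MHCC97L-Src replicate 2 lies among them. The log2 fold change was 0.62 ± 0.41 (SE, 95% interval -0.31 to 1.56, adjusted p = 0.323, edgeR) for MHCC97L-Src and 0.69 ± 0.34 (-0.10 to 1.47, adjusted p = 0.253) for MHCC97L-Oxa. The correction left both values in place, at 0.66 (adjusted p = 0.138) and 0.74 (adjusted p = 0.0510), neither under 0.05.

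In FPKM, which ATPase led depended on the library in MHCC97L but not in the resistant lines. ATP7B made up 27.3%, 84.8% and 37.2% of the summed ATP7A and ATP7B FPKM in the MHCC97L libraries, 70.8%, 80.1% and 86.0% in those of MHCC97L-Src, and 84.7%, 86.6% and 71.0% in those of MHCC97L-Oxa. ATP7B was above ATP7A in 1 of 3 MHCC97L libraries and in 3 of 3 of each resistant line. This share was chosen after the values were seen and has no test. It also depends on the scale: in MHCC97L replicate 3 the counts of ATP7A and ATP7B were 93 and 92. The deviation of ATP7A fitted from GC content and length was highest in MHCC97L replicates 1 and 3, at 1.86 and 0.735 on the log2 scale. Its part in the share was not tested.

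**Figure D3:**
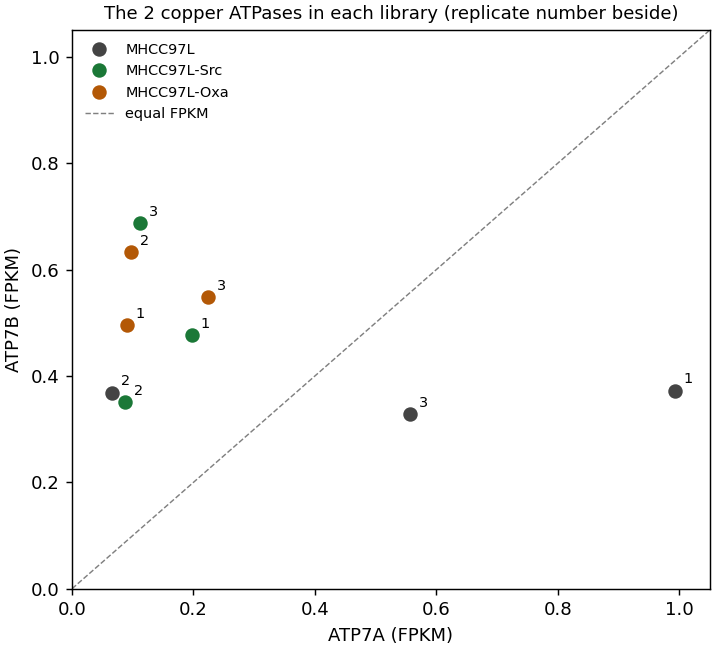
ATP7B (y axis) against ATP7A (x axis), both in FPKM, for each of the 9 libraries, with the replicate number beside each point and a dashed line of equal FPKM. MHCC97L replicates 1 and 3 lie below the line and the other 7 libraries above it.

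SLC47A1, the proton-driven cation exporter, was one of the steadiest members. It measured 4.45, 5.44 and 5.41 FPKM in the MHCC97L libraries, 6.58, 4.90 and 6.77 in those of MHCC97L-Src, and 5.60, 7.50 and 6.38 in those of MHCC97L-Oxa. MHCC97L-Src replicate 2 lies among the MHCC97L libraries, and the MHCC97L-Oxa libraries lie above them. In edgeR's fit it had a log2 fold change of 0.32 ± 0.35 (SE, 95% interval -0.47 to 1.11, adjusted p = 0.544, edgeR) for MHCC97L-Src and 0.35 ± 0.31 (-0.37 to 1.06, adjusted p = 0.485) for MHCC97L-Oxa. With the GC and length correction the values were 0.41 and 0.42 (adjusted p = 0.300 and 0.318, edgeR).

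The log2 ratio of SLC31A1 to the summed ATP7A and ATP7B FPKM, an uptake to export ratio within a library, was 2.73 ± 0.93 (SD, n = 3) for MHCC97L, 2.50 ± 0.34 for MHCC97L-Src and 2.73 ± 0.56 for MHCC97L-Oxa. The difference from MHCC97L was -0.23 for MHCC97L-Src (two-sided exact permutation test, p = 0.7) and 0.00 for MHCC97L-Oxa (p = 1.0), and between the resistant lines it was -0.23 (p = 0.7). Adjusted over these 3 comparisons each exact p was 1.0, and 3 libraries against 3 cannot give a p below 0.1.

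Between MHCC97L-Src and MHCC97L-Oxa no member passed the test either. Log2 fold changes lay between -0.24 (SLC31A1) and 0.27 (ATOX1), 0 of 8 members were called against 4.64% of all tested genes, and 0 of 8 had an unadjusted p under 0.05 with edgeR, against 19.5% of genes. DESeq2 also called 0, against 5.59%. With the fold threshold the background was 4.01%, and 0 of 8 members separated without overlap against 26.5% of genes in FPKM and 26.7% in TMM-scaled log2 CPM. The lowest adjusted p was 0.354, for ATOX1. Intervals were still wide for the low genes: that of ATP7A ran from -0.83 to 0.98 on the log2 scale and that of SLC22A3 from -0.73 to 0.87, so a difference of that size was not detectable here.

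The median log2 fold change of the 8 members was 0.18 for MHCC97L-Src and 0.01 for MHCC97L-Oxa, beside medians of -0.16 and -0.19 over all tested genes. Between the resistant lines the medians were 0.07 and -0.02.

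Much of the members' movement between libraries ran along with their GC content and length. Over the 9 libraries, Pearson's r between a gene's deviation from its mean and the deviation fitted from the GC content and length of all genes was 0.96 for CCS, 0.93 for ATP7A, 0.91 for ATOX1, 0.88 for SLC22A3 and 0.76 for SLC31A1. It was 0.04 for SLC31A2, -0.14 for ATP7B and -0.31 for SLC47A1. The 9 points share libraries and the fit contains the genes themselves, so these are descriptions without a p. After the fitted part was taken away, the SD of the deviations went from 1.04 to 0.42 on the log2 scale for ATP7A and from 0.35 to 0.10 for CCS, and that of SLC47A1 went from 0.24 to 0.34. The part that this property of the libraries plays in the ATP7A, CCS, ATOX1 and SLC31A1 values was not tested.

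**Figure D4:**
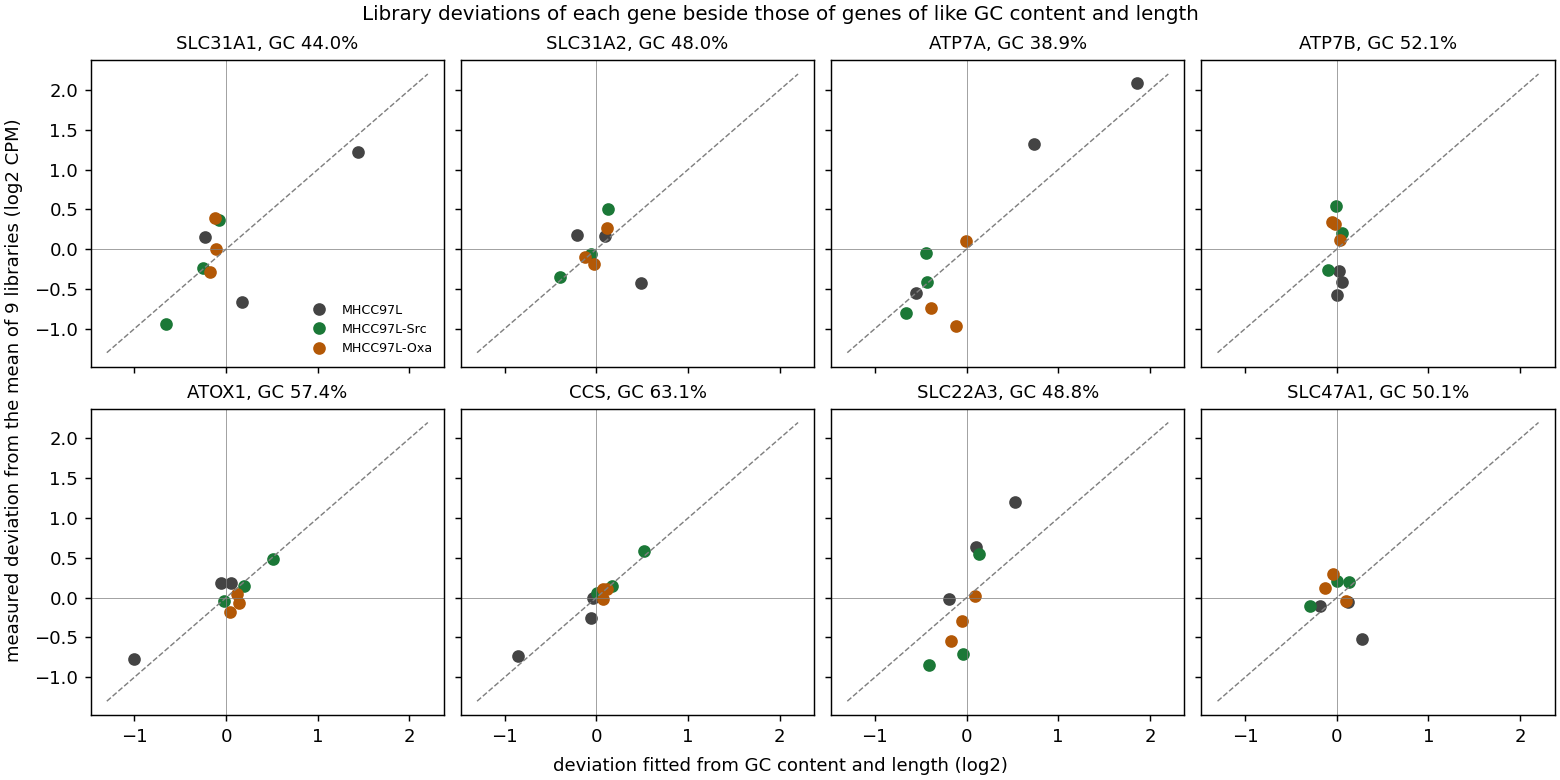
Deviation of each gene's log2 CPM from its mean over 9 libraries (y axis) against the deviation fitted from GC content and transcript length (x axis), one panel per gene with its GC content, points coloured by line and a dashed line of equality. Points of CCS follow the line (r = 0.96), whereas those of ATP7B do not (r = -0.14), and MHCC97L replicate 1 is the far point in the panels of ATP7A, SLC31A1, ATOX1 and CCS.

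The genes whose pattern over the 9 libraries was most like that of a member were named for each by Pearson's r of log2 CPM. They were picked for the highest r among all genes kept by the filter, so a high r was bound to be found and has no test. Much of the pattern of SLC31A1, SLC22A3, ATOX1, CCS and ATP7A ran along with GC content and length, and shared regulation was not tested. For SLC31A1 these were CMAS and WSB1 (r = 0.99 for both), for SLC31A2 PSPH (0.88) and C1orf43 (0.87), and for SLC22A3 COQ3 (0.99) and AP4B1 (0.97). For ATOX1 they were NHP2 and NDUFB9 (1.00 for both) and for CCS HDHD3 and ATP5IF1 (0.99 for both). For ATP7A they were VPS8 (0.99) and DNA2 (0.98), for ATP7B SMIM19 (0.95), and for SLC47A1 SNAI3 and FAM167A (0.96 for both). Among the members themselves, ATOX1 and CCS had r = 0.84, SLC31A1 and SLC22A3 had 0.83, and ATP7B and SLC47A1 had 0.77. SLC31A1 and ATOX1 had -0.89, ATP7A and CCS had -0.82, and CCS and SLC22A3 had -0.78.

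The wider copper and platinum machinery was read through 6 lists of 62 genes, of which 50 were tested in each comparison. For MHCC97L-Src 1 rose and 1 fell, for MHCC97L-Oxa edgeR called 0, and between the resistant lines 1 was higher and 6 were lower in MHCC97L-Src. These edgeR calls are 4.0%, 0.0% and 14.0% of the list genes, against the 2.13%, 0.953% and 4.64% of all tested genes above. At an unadjusted p under 0.05 the counts were 15, 13 and 11 list genes, or 30.0%, 26.0% and 22.0%, near the 29.5%, 22.4% and 19.5% of all tested genes. DESeq2, which tested 57, 56 and 55 of the list genes, called 11, 4 and 8, or 19.3%, 7.1% and 14.5%, against 14.6%, 6.12% and 5.59% of all genes it tested. With the GC and length correction 5 rose and 3 fell in MHCC97L-Src, 6 rose and 1 fell in MHCC97L-Oxa, and 4 were higher and 5 lower between the resistant lines. That correction also raised the calls over all tested genes, to 1361 of 12037, 1605 of 12064 and 1182 of 11994.

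Platinum carriers other than the members held both calls made against MHCC97L with TMM normalization. TMEM205, a membrane protein linked to cisplatin resistance, had 471, 872 and 944 counts in the MHCC97L libraries, 2680, 3391 and 2827 in those of MHCC97L-Src, and 2361, 2379 and 2217 in those of MHCC97L-Oxa. All 6 resistant libraries lie far above the MHCC97L libraries. TMEM205 rose in MHCC97L-Src by 2.07 on the log2 scale (adjusted p = 0.0227, edgeR), and the value in MHCC97L-Oxa was 1.59 (adjusted p = 0.0626). The call in MHCC97L-Src was kept under all 11 other settings of the processing (adjusted p at most 0.0274) but in only 3 of 6 fits that left out 1 library. It was lost without MHCC97L replicate 3 (0.0812), MHCC97L-Src replicate 2 (0.0931) and MHCC97L-Src replicate 3 (0.0774). Those fits called 22, 47 and 27 of all tested genes, against 256 with all 6 libraries. The TMEM205 value ran from 1.82 to 2.26 in the fits without a library. In MHCC97L-Oxa it was called under 10 of the 11 other settings, the exception being the minimum of 10 counts in every library (0.0675), and in 2 of 6 fits without a library, not without MHCC97L replicate 3 (0.162) or any MHCC97L-Oxa library (0.267 to 0.316). With the GC and length correction TMEM205 was called in both lines, at 1.67 and 1.33 (adjusted p = 0.00126 and 0.00269).

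SLC22A5, the carnitine carrier OCTN2, had 1479, 1544 and 1303 counts in the MHCC97L libraries, 512, 356 and 613 in those of MHCC97L-Src, and 982, 804 and 831 in those of MHCC97L-Oxa. The 3 lines do not overlap. It fell by 1.45 on the log2 scale in MHCC97L-Src (adjusted p = 0.0327, edgeR), and the value in MHCC97L-Oxa was -0.73 (adjusted p = 0.164). The MHCC97L-Src call was kept under all 11 other settings but in 2 of 6 fits without a library, and was lost without MHCC97L replicate 3 (0.110) or any MHCC97L-Src library (0.132 to 0.199). The fits that lost it called 22 to 69 of all tested genes, against 256 with all 6 libraries. In MHCC97L-Oxa it was called under 2 of the 11 other settings, among them the GC and length correction (adjusted p = 0.0157, edgeR), and in 1 of 6 fits without a library. LRRC8A, a subunit of the volume-regulated anion channel that also carries platinum drugs, was at 20.6 ± 4.27, 16.6 ± 0.91 and 16.5 ± 0.97 FPKM (SD, n = 3) in MHCC97L, MHCC97L-Src and MHCC97L-Oxa. The list's 7 tested genes had a median log2 fold change of -1.44 for MHCC97L-Src and -0.41 for MHCC97L-Oxa, and these moved to -0.45 and -0.36 with the correction.

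Of the 4 tested genes of metal reduction and other copper or iron entry, 2 differed between the resistant lines, in opposite directions. STEAP3, which reduces iron and copper in endosomes, had 1602, 2268 and 2359 counts in the MHCC97L libraries, 1451, 1475 and 1397 in those of MHCC97L-Src, and 3409, 3176 and 3180 in those of MHCC97L-Oxa, and was lower in MHCC97L-Src than in MHCC97L-Oxa, with a log2 difference of -1.06 (adjusted p = 0.000808, edgeR). STEAP4, a related reductase, had 2685, 271 and 616, then 538, 338 and 739, then 231, 251 and 276 counts. It was higher in MHCC97L-Src than in MHCC97L-Oxa by 1.18 (adjusted p = 0.0171, edgeR), and MHCC97L replicate 1 alone exceeds the other 8 libraries. CYBRD1, an iron reductase of the plasma membrane, had a log2 difference of -0.06 between the resistant lines (adjusted p = 0.907, edgeR). Against MHCC97L with the GC and length correction, CYBRD1 was called in MHCC97L-Src (0.93, adjusted p = 0.0424, edgeR) but not in MHCC97L-Oxa (0.77, adjusted p = 0.0762). STEAP3 was then called lower in MHCC97L-Src (-0.64, adjusted p = 0.0158, edgeR) and higher in MHCC97L-Oxa (0.54, adjusted p = 0.0194).

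Copper enzymes gave 3 further calls between the resistant lines, each lower in MHCC97L-Src than in MHCC97L-Oxa. CP, the ferroxidase ceruloplasmin, had 106, 6 and 57 counts in the MHCC97L libraries, 34, 20 and 23 in those of MHCC97L-Src, and 127, 130 and 210 in those of MHCC97L-Oxa, a log2 difference of -2.50 (adjusted p = 0.00189, edgeR). LOX and LOXL2, lysyl oxidases that crosslink collagen, differed by -0.84 and -0.85 (adjusted p = 0.0162 and 0.00422). Mean LOXL2 was 53.6 ± 11.1 FPKM (SD, n = 3) for MHCC97L, 53.3 ± 4.8 for MHCC97L-Src and 100.6 ± 3.87 for MHCC97L-Oxa. Mean LOX was 2.82 ± 1.90, 4.78 ± 0.53 and 9.18 ± 1.52 FPKM in the same order. With the GC and length correction LOX was called higher than in MHCC97L in MHCC97L-Src (2.18, adjusted p = 0.0138, edgeR) and MHCC97L-Oxa (2.73, adjusted p = 0.00699). In MHCC97L-Oxa CP (2.73, adjusted p = 0.0130, edgeR) and LOXL2 (0.77, adjusted p = 0.00629) were then also called higher. SOD1, the target of CCS, was at 409.0 ± 22.6, 391.2 ± 47.8 and 346.4 ± 14.8 FPKM and was called in no comparison with TMM normalization, but between the resistant lines with the GC and length correction (0.34, adjusted p = 0.0391, edgeR). The list's 9 tested genes had median log2 fold changes of 0.07 and 0.35 against MHCC97L and 0.04 between the resistant lines.

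The remaining lists gave no call by edgeR with TMM normalization. After correction for GC content and length edgeR called GLRX, a glutaredoxin, in MHCC97L-Src (1.45, adjusted p = 0.00643) and MHCC97L-Oxa (1.14, adjusted p = 0.0149), and CHCHD7 between the resistant lines (0.60, adjusted p = 0.0362). In mitochondrial copper delivery, led by SLC25A3, the carrier of copper and phosphate, at 274.0, 247.8 and 253.7 FPKM, and COX17 at 146.7, 146.9 and 130.8 FPKM, 0 of 8 genes had an unadjusted p under 0.05 in any comparison. Among 14 partners of copper ATPase trafficking and copper handling, 5, 2 and 1 had an unadjusted p under 0.05 in the 3 comparisons, and the abundant members CLU (204.0, 171.4 and 174.9 FPKM) and CUTA (147.0, 218.8 and 179.1) were not called. Of 8 lipoylation and copper-induced death genes, 3, 4 and 1 had an unadjusted p under 0.05. The background for the counts of each list here is the 29.5%, 22.4% and 19.5% of all tested genes that passed. The lipoylation and copper-induced death genes had a median log2 fold change of -0.82 for MHCC97L-Src and -0.70 for MHCC97L-Oxa before the GC and length correction. After it the medians were 0.02 and -0.10. PDHB and PDHA1, subunits of pyruvate dehydrogenase, were at 38.9 and 39.5 FPKM in the MHCC97L libraries, 24.9 and 24.9 in those of MHCC97L-Src, and 27.9 and 25.6 in those of MHCC97L-Oxa.

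**Figure D5:**
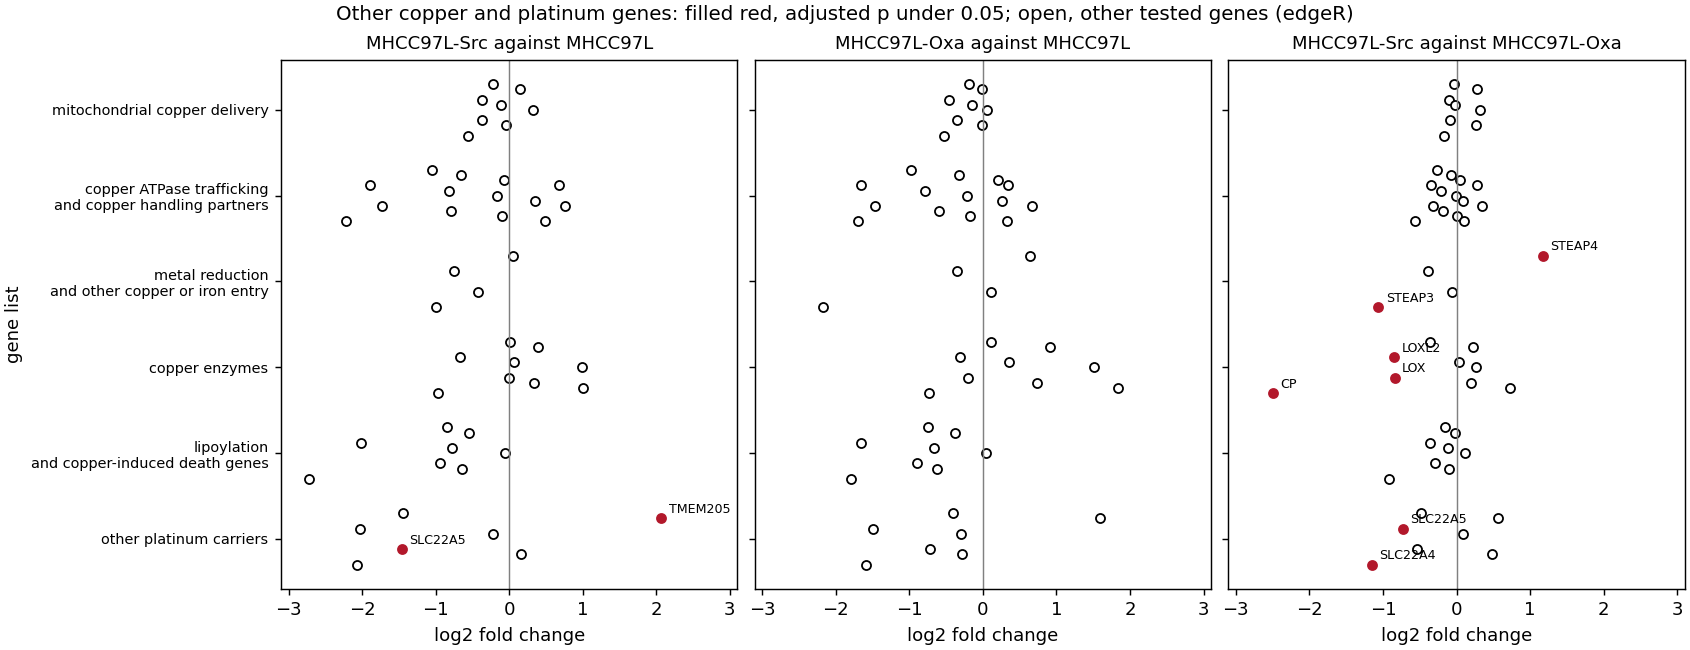
Log2 fold change (x axis) of the tested genes of 6 copper and platinum lists (rows) in the 3 comparisons, with genes at an adjusted p under 0.05 (edgeR) filled red and named and all others open; vertical scatter within a row only separates points. TMEM205 (2.07) and SLC22A5 (-1.45) are called for MHCC97L-Src against MHCC97L, none for MHCC97L-Oxa, and 7 genes between the resistant lines.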

How the data were processed

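RNA of 9 libraries of 3 lines (3 each) was sequenced from poly(A) libraries made with a stranded kit. Per the labels, the authors' processing used Trimmomatic 0.36, HISAT2 2.2.1.0 and build GRCh38.p12; the counting program and its strand setting are not given in the sources used here. The deposited values are raw counts and FPKM per gene, computed by the authors. FPKM per CPM was not constant for a gene over libraries: for ATP7A it ran from 0.0510 to 0.107, which changes its FPKM but not its counts, and for the other members it varied by at most 1.22 times. Total counts were 16970486 to 18209213 per library.

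Counts were tested with edgeR 4.0.16 (R 4.3.3), filterByExpr (minimum count 10), TMM normalization, the quasi-likelihood test on the 6 libraries of each comparison and Benjamini-Hochberg adjustment over all tested genes, with a threshold of 0.05. The study's methods state no count test. Alternatives were DESeq2 1.42.0, other normalizations and filters, a replicate block, all 9 libraries in one fit, limma 3.58.1 on log2(FPKM + 1) and log2(FPKM + 0.1), a correction for GC content and length, and leaving out each library. GC content came from GENCODE v29 transcripts, matched for 19474 of 20030 genes, with offsets from splines of 5 degrees of freedom. The fit was tested on simulated data. Correlations of same-numbered deviations ran from -0.65 to 0.44, and those of differently numbered ones from -0.53 to 0.66. As these ranges are alike, whether the replicate numbers pair the libraries is not settled, and the main test did not pair them.

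The members follow a rule by gene name and function that uses no measured value, but they and the lists were chosen with earlier results of these data known. Named genes are all members, list genes with an adjusted p under 0.05 in any comparison, the 2 most abundant genes of each list by mean FPKM and, for members with a mean of at least 1 CPM, the 2 genes with the highest correlation over the 9 libraries. Other genes named were markers or were named to describe a group. A few genes that these rules or the marker lists name are not reported here.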

Additional observations from a re-analysis of the deposited data

Results flagged for a closer look

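A direct contrast of the resistant lines found that 7 of the 50 tested list genes (14.0%) differed between MHCC97L-Src and MHCC97L-Oxa, against 4.64% of all tested genes. This contrast is also the difference between the lines' effects against the shared MHCC97L libraries. On the log2 scale, MHCC97L-Src minus MHCC97L-Oxa, the values were -2.50 for CP, -1.15 for SLC22A4, -1.06 for STEAP3, -0.85 for LOXL2, -0.84 for LOX, -0.73 for SLC22A5 and 1.18 for STEAP4 (edgeR's quasi-likelihood test with Benjamini-Hochberg adjustment, adjusted p = 0.00189, 0.0116, 0.000808, 0.00422, 0.0162, 0.0428 and 0.0171). None of the 8 members did. CP, LOXL2 and STEAP3 were called in each of the 6 fits that left out 1 library, LOX in 4 (not without MHCC97L-Oxa replicate 1 or 2), SLC22A4 in 3 (not without MHCC97L-Src replicate 1 or MHCC97L-Oxa replicate 1 or 2), and SLC22A5 and STEAP4 in 2 (not without MHCC97L-Src replicate 1 or any MHCC97L-Oxa library). In those lost calls the adjusted p was 0.0937 to 0.101, 0.0539 to 0.0832, 0.135 to 0.159 and 0.0527 to 0.112. The fits that lost them called 167 to 243 of all tested genes, against 556 with all 6 libraries. With all 9 libraries in one fit none of the 7 was called (adjusted p from 0.0531 for STEAP3 to 0.870 for STEAP4). Other settings also lost LOX with the GC and length correction, alone (-0.55, adjusted p = 0.133) and with the replicate block (0.0801), SLC22A5 with total counts in place of TMM (0.0644) and with limma on log2(FPKM + 1) and log2(FPKM + 0.1) (0.0910 and 0.0905), and STEAP4 with both limma fits (0.1002 and 0.0851).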

How the results depend on the processing

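Of 408 recomputed member fold changes, 369 kept their direction and side of the threshold, 37 turned sign and 2 passed it. The 2 were ATP7A without MHCC97L replicate 2, giving 1 member called for each resistant line, as did an unadjusted p under 0.05 with a log2 fold change over 1; the count was otherwise 0, also with the replicate block. Deviations of same-numbered libraries had r from -0.65 to 0.22, -0.22 to 0.44 and -0.29 to 0.03 in the 3 comparisons, which does not settle whether the numbers pair libraries. The replicate block moved the calls over all genes from 256 to 988, 115 to 92 and 556 to 406. Over all genes the other settings gave 162 to 2219, 92 to 1605 and 86 to 1182 calls, and fits without a library 22 to 3419, 2 to 2705 and 167 to 1617. The extremes came without MHCC97L replicate 2 (3419 and 2705) or replicate 3 (22 and 2), and 2 was also the count without any 1 MHCC97L-Oxa library. With the GC and length correction, alone and with the replicate block, the sign turned for SLC31A1 (0.23 and 0.28 for MHCC97L-Src, 0.34 and 0.40 for MHCC97L-Oxa) and ATOX1 (-0.24 and -0.24, then -0.37 and -0.37), and for CCS in MHCC97L-Oxa without the block (-0.0018). Between the resistant lines SLC22A3 turned to -0.071 with the replicate block and -0.0045 with both. With limma on log2(FPKM + 1) the turned values between the resistant lines were -0.0020 (SLC31A2), -0.0054 (ATP7A) and -0.014 (SLC22A3), and on log2(FPKM + 0.1) -0.023, -0.014 and -0.095, with SLC31A2 at -0.0064 for MHCC97L-Src. The cause of these turns was not tested. Leaving out each library, ranges for MHCC97L-Src were -0.99 to 0.059 (SLC31A1) and -0.20 to 0.29 (SLC31A2), and for MHCC97L-Oxa -0.72 to 0.35 (SLC31A1), -0.14 to 0.18 (SLC31A2) and -0.15 to 0.23 (ATOX1). Between the resistant lines they were -0.62 to 0.017 (SLC31A1), -0.21 to 0.24 (SLC31A2), -0.15 to 0.50 (ATP7A), -0.28 to 0.11 (ATP7B), -0.53 to 0.29 (SLC22A3) and -0.12 to 0.063 (SLC47A1). The uptake to export ratio ranged from -0.75 to 0.13, -0.52 to 0.36 and -0.49 to 0.065 without a library, and with CPM in place of FPKM was -0.46 for MHCC97L-Src and -0.22 for MHCC97L-Oxa. At 17 to 173 counts, ATP7A is limited by depth as well as by the spread of its 3 MHCC97L libraries.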
